A study of Drosophila melanogaster with 16 samples.

Results

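The genes described here are the chitinases, obstructors, peritrophins, mucins and mucin-related genes of Drosophila melanogaster, together with Gasp and the chitin deacetylases serpentine (serp) and vermiform (verm). The rule that picks them reads names and no values: it takes every row of the count table whose symbol begins with Cht, Muc or Mur and a digit, or with obst- or Peritrophin, plus Gasp, serp and verm. This gave 43 of the 16680 genes in the table: 10 chitinases, 13 mucins, 6 mucin-related genes, 9 obstructors with Gasp among them, 3 peritrophins and 2 chitin deacetylases. Poly(A) RNA from the midguts of virgin flies of both sexes was sequenced, with 4 libraries per group and 30 pooled midguts per library. Flies of the tested genotype were labelled mex1TS > MycRNAi GD1419, in which the enterocyte driver mex1-GAL4, in its temperature-sensitive form, is combined with an RNAi line against Myc. Controls of each sex carried the driver alone (w1118; mex1-GAL4 TS/+), so the driver was present in all 4 groups. The RNAi was of 1 line, GD1419, while the age of the flies and the temperature are not given. By its title, the study concerned Myc and how zones of the intestine differ by region and sex.

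The adult midgut is lined on its luminal side by the peritrophic matrix, a mesh of chitin fibres and glycoproteins that keeps food particles and microbes away from the epithelium. It is secreted mainly by the proventriculus at the front of the midgut. Peritrophins and obstructors bind chitin, mucins are secreted or membrane proteins carrying many O-linked sugars, chitinases cut chitin chains, and chitin deacetylases remove acetyl groups from them. Several members are better known from the trachea, the air tubes that branch over the gut and are lined with chitin as well; Gasp, serp, verm and obst-A are examples.

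Total counts per library ranged from 16630050 to 53586401. Levels are given as CPM, each library's counts relative to its TMM-scaled total, and changes as log2 fold changes from the edgeR quasi-likelihood test. Calls were made at a Benjamini-Hochberg adjusted p below 0.05, with the adjustment run across the 9314 genes tested; "adjusted p" stands for that edgeR value throughout. Myc itself, the target of the RNAi, was at 43.7 to 83.6 CPM in females labelled Myc RNAi, against 60.5 to 126.5 CPM in female controls (log2 fold change −0.59, SE 0.26, adjusted p = 0.0892). In males it was at 30.6 to 60.2 CPM in the libraries labelled Myc RNAi, against 19.8 to 34.0 CPM in controls (0.65, SE 0.26, adjusted p = 0.0619), which goes against the label. The groups are therefore named by their label. Male replicate 16, labelled Myc RNAi, stood apart with 23507 reads from 10 testis germline genes, against 10 to 33 in the other libraries of its group. Females labelled Myc RNAi held 12 to 24 such reads, female controls 0 to 2 and male controls 0 to 4. The cause of this difference between genotypes was not tested. Each genotype result for males below was also computed without replicate 16. Fewer cells of a type and less RNA per cell cannot be told apart in these bulk samples.

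Of the 43 members, 41 had a read in some library and 27 passed the filter on low counts and were tested: 9 chitinases, 7 mucins, 3 mucin-related genes, 4 obstructors including Gasp, 2 peritrophins and both deacetylases. The 16 members that were not tested had 94 reads or fewer over all libraries. With reads these were Cht6, Muc12Ea, Muc26B, Muc30E, Muc4B, Muc91C, Muc96D, Mur11Da, Mur89F, obst-B, obst-F, obst-G, obst-I and obst-J. No read was found for Peritrophin-15b and Mur82C, which allows a level of up to 0.00625 CPM over the 16 libraries (3 counts, counting error only). Replicate 16 held all 59 reads of Muc4B and 36 reads of obst-J, which had 21 in the other 15 libraries. Together the 43 genes summed to between 4838 and 7120 CPM in males labelled Myc RNAi, against 2416 to 3930 CPM in male controls. In females the sums were 3378 to 4775 CPM in the libraries labelled Myc RNAi and 1421 to 3181 CPM in controls. The ranges did not overlap in either sex. Most of these reads came from Cht4, Muc68D and Mur29B, which made up 51.6% to 91.8% of the sum in any library. Per kilobase of merged exons the order differed. The short Peritrophin-15a led in both control groups, with means of 1284 CPM per kb in females and 950 in males, followed in female controls by Mur29B (221) and Muc68D (215) and in male controls by Cht4 (374) and Muc68D (241). Among the libraries labelled Myc RNAi, Cht4 led with means of 636 CPM per kb in females and 2382 in males, followed by Mur29B (593 and 659 in the same units). Several neighbours in these orders overlapped in their ranges: Mur29B and Muc68D in female controls, Cht4 and Muc68D in male controls, and Cht4 and Mur29B in females labelled Myc RNAi.

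The chitinases Cht12, Cht4, Cht9 and Cht2 were higher in midguts labelled Myc RNAi than in controls, by 1.78 to 3.36 on the log2 scale. Mur29B rose by 1.42 in females and 2.08 in males, and Peritrophin-15a fell in both sexes. Of the 9 tested chitinases, 4 were not called in either sex. In females 7 members rose and 1 fell. In males 8 rose and 5 fell. The same 7 rose in both sexes: Cht4, Cht9, Cht12, Cht2, Cht10, Mur29B and Muc68E. Of all 9314 tested genes, 36.1% were called in females (18.5% higher and 17.6% lower) and 39.4% in males (21.7% higher and 17.7% lower). Against that background, 8 of 27 tested members (29.6%) were called in females and 13 of 27 (48.1%) in males. Both shares lie near those of all genes, and with 1 library left out the counts ranged over 6 to 9 in females and 11 to 14 in males. The median log2 fold change of the tested members was 0.35 in females and −0.02 in males, against 0.00 and 0.05 over all tested genes. Without replicate 16 the male counts were again 8 higher and 5 lower.

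**Figure D1:**
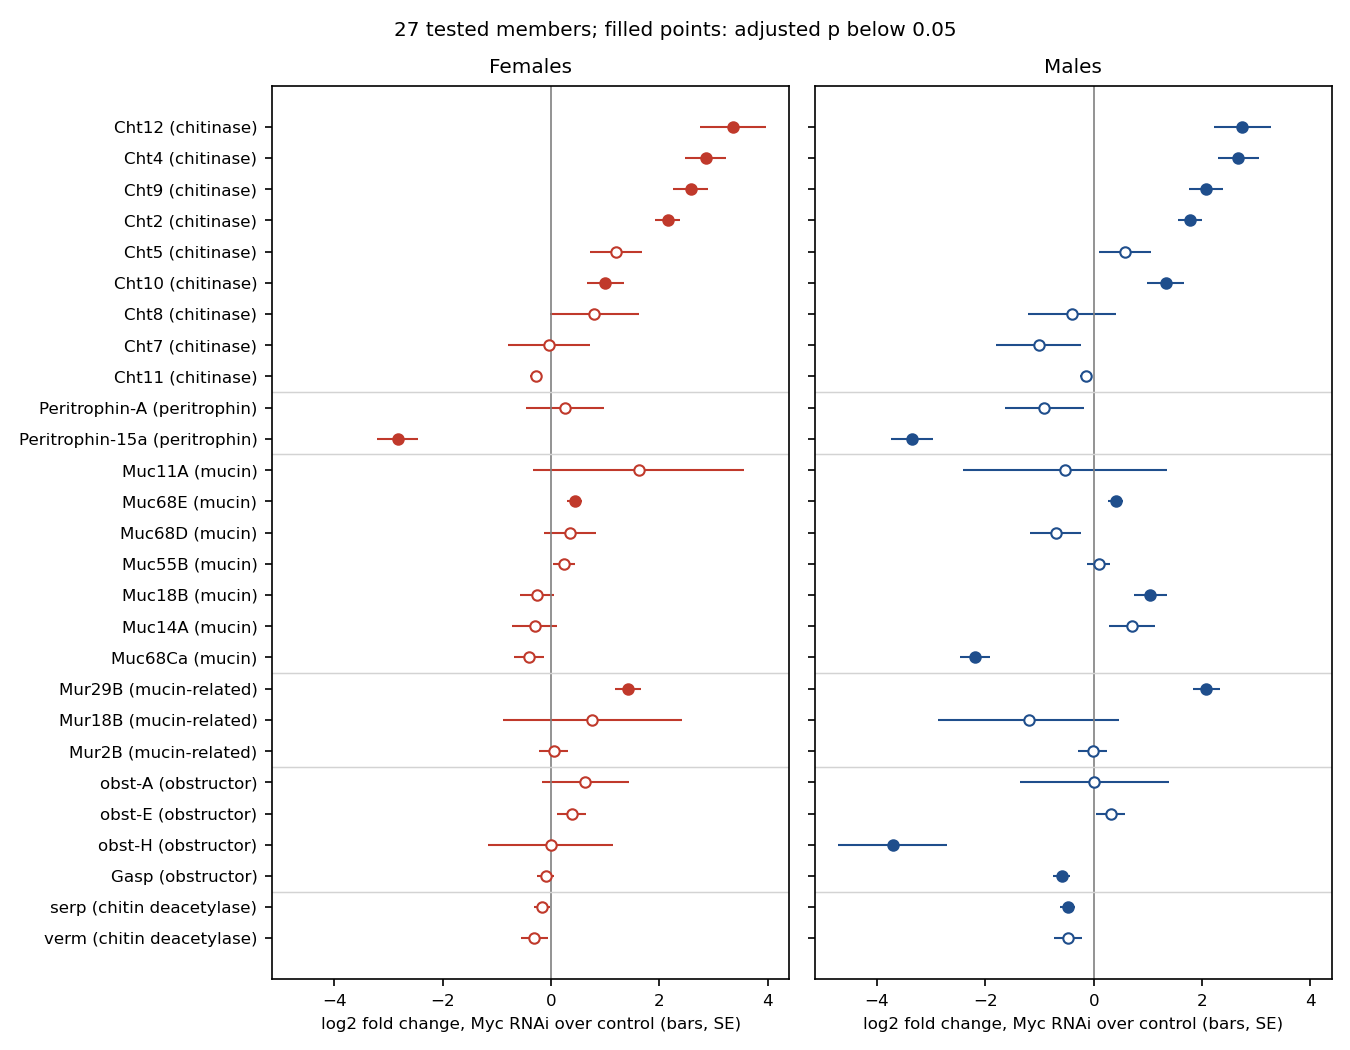
Log2 fold change of midguts labelled Myc RNAi over controls for the 27 tested members, females left and males right; bars are SE and filled points have an adjusted p below 0.05. Cht12, Cht4, Cht9 and Cht2 lie at 1.78 or higher in both sexes, and Peritrophin-15a at −2.83 and −3.35.

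Markers of several cell types moved with genotype beside these genes. Of 5 enterocyte markers, the septate junction genes mesh, Tsp2A and Ssk rose in both sexes, by 1.16 to 1.37 in females and 1.38 to 1.53 in males, and Myo31DF and nub were not called. The 5 summed to 6200 to 7084 CPM in females labelled Myc RNAi and 2651 to 3467 CPM in female controls. In males the sums were 6927 to 9688 CPM in the libraries labelled Myc RNAi and 3379 to 3871 CPM in controls. Of 4 markers of stem cells and enteroblasts, 4 rose in females and 2 in males, with sums of 98.5 to 149 CPM in females labelled Myc RNAi against 40.3 to 88.1 CPM in controls. Male sums of that list were 117 to 180.0 CPM in the libraries labelled Myc RNAi and 55.8 to 89.4 CPM in controls. In females the calls of esg and klu ended in 5 and 6 of 23 alternatives (adjusted p up to 0.0885 and 0.0953), and in males, where esg was not called, 3 of 23 called it. In males klu was not called either (adjusted p = 0.315), and without replicate 5 it was called lower (−0.52, adjusted p = 0.0305). No gene of either list was at 0 in any group. Some markers of 3 other lists fell. Of 4 copper cell markers, Vha100-4 and dve fell in males, by 0.95 and 0.96, and were at −0.33 and −0.19 in females, where neither was called; dve was not called under total-count scaling (adjusted p = 0.0825). The copper cell list summed to 181 to 342 CPM in males labelled Myc RNAi and 372 to 482 CPM in male controls, and to 394 to 473 CPM in females labelled Myc RNAi and 419 to 502 CPM in female controls. Of 3 tested hindgut and Malpighian tubule markers, Irk2 fell by 0.78 in females and 1.25 in males, and the list summed to 30.1 to 47.1 CPM in males labelled Myc RNAi and 68.1 to 137 CPM in male controls. In females the hindgut and tubule list summed to 22.2 to 52.2 CPM in the libraries labelled Myc RNAi and 39.8 to 64.3 CPM in controls, and the Irk2 call ended in 4 of 23 alternatives. On that list byn went the other way, at 3.45 in females (SE 1.42, adjusted p = 0.0688) and 1.26 in males (SE 1.22, adjusted p = 0.453). It was not called, but 3 of 21 alternatives called it higher in females. The median log2 fold change of the 3 tested genes of that list was 2.46 in females and −0.69 in males. That median is the value of the remaining gene, which was not called. In females that gene and byn were thus positive, and only Irk2 was negative. Of 3 fat body markers, Lsp2 was called lower in females, a call that ended without control replicate 3 and with limma voom (adjusted p 0.190 and 0.147). The part of cell composition in the member results was not tested.

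Cht4, the chitinase transcript with the highest mean CPM per kb in each group, overlapped Cht8 in female controls and led it in every library of the other groups. It had 969, 940, 932 and 905 CPM in females labelled Myc RNAi, against 81.1, 45.8, 144 and 247 CPM in female controls. In males it had 3874, 2022, 3811 and 4326 CPM in those labelled Myc RNAi, against 611, 546, 575 and 472 CPM in controls. The groups did not overlap in either sex. The log2 fold change was 2.85 in females (SE 0.38, adjusted p = 2.93e-05) and 2.67 in males (SE 0.38, adjusted p = 3.3e-05). Such a lack of overlap between genotypes was found for 37.3% of all tested genes in females and 34.9% in males, and for 10 and 12 of the 27 members. Cht4 alone held 41.8% to 62.6% of all member CPM in males labelled Myc RNAi, against 15.5% to 23.8% in male controls.

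Cht9, a paralogue beside Cht4, had 46.8, 41.1, 47.1 and 40.9 CPM in females labelled Myc RNAi, against 10.2, 6.11, 5.61 and 7.59 CPM in controls. Male values were 60.8, 48.2, 55.9 and 158 CPM in those labelled Myc RNAi and 21.8, 18.3, 22.2 and 14.4 CPM in controls. All libraries labelled Myc RNAi lay above all controls of their sex, and the value of 158 CPM was that of replicate 16. Its log2 fold change was 2.58 in females (SE 0.33, adjusted p = 1.69e-05) and 2.08 in males (SE 0.31, adjusted p = 5.58e-05), or 1.52 in males without replicate 16 (adjusted p = 8.3e-06). Cht12 was a low transcript in controls. It had 7.93, 7.03, 6.87 and 7.03 CPM in females labelled Myc RNAi, against 0.160, 0.137, 0.665 and 1.87 CPM in controls. Its values in males were 23.7, 14.9, 22.1 and 44.7 CPM in those labelled Myc RNAi, with replicate 16 again highest, against 1.58, 2.43, 7.01 and 4.54 CPM in controls. The change of Cht12 was 3.36 in females (SE 0.61, adjusted p = 0.000367) and 2.75 in males (SE 0.53, adjusted p = 0.000527). It was 4.36 in females without control replicate 4 (adjusted p = 5.71e-05) and 2.37 in males without replicate 16 (adjusted p = 0.00185).

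**Figure D2:**
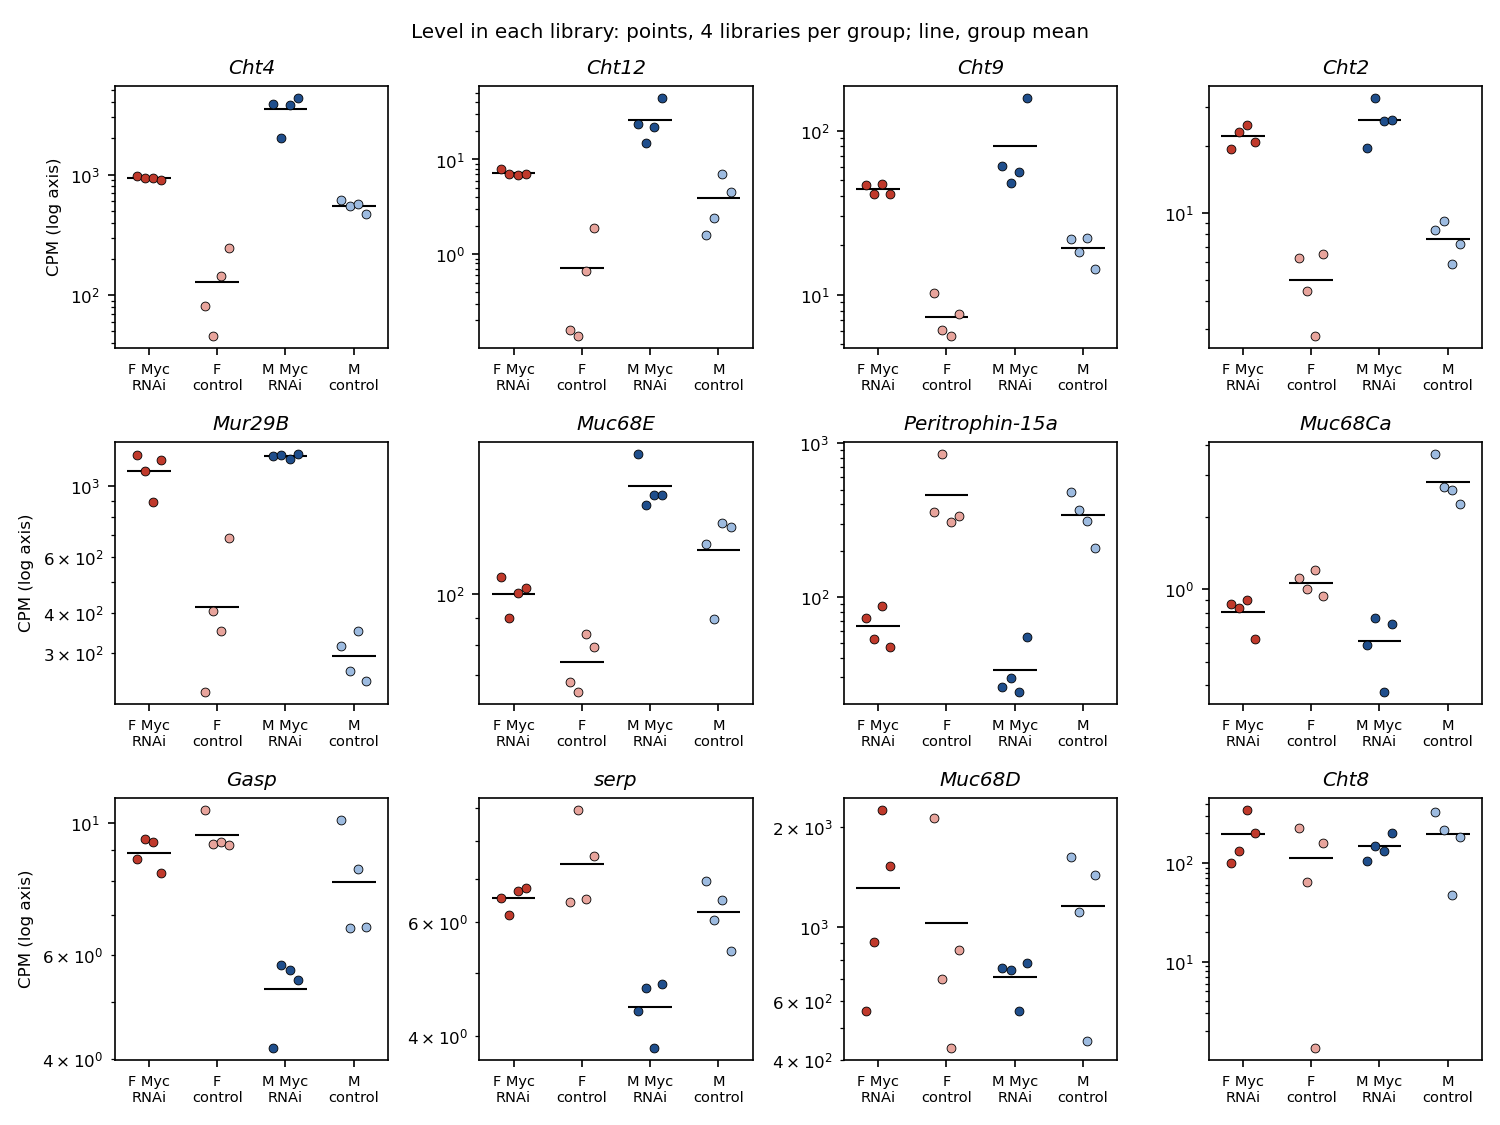
CPM on a log axis in each library for 12 members; points are libraries, 4 per group, and lines are group means. For Cht4, Cht9, Cht12, Cht2 and Mur29B all libraries labelled Myc RNAi lie above the controls of the same sex, and for Peritrophin-15a all lie below.

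Cht4, Cht9 and Cht12 are neighbours in the genome. On the BDGP6 assembly, which has the dm6 coordinates, Cht8 (chr2R:21061646-21063212), Cht12 (chr2R:21063178-21064986), Cht4 (chr2R:21065379-21067087) and Cht9 (chr2R:21067992-21069286) lie in a run that spans 7.64 kb with no other protein-coding gene of the table inside it. Cht8 is on the plus strand and the other three are on the minus strand. Cht8 was the exception within the run, at a log2 fold change of 0.80 in females (SE 0.82, adjusted p = 0.499) and −0.41 in males (SE 0.82, adjusted p = 0.735). Its levels ranged from 101 to 346 CPM in females labelled Myc RNAi and from 1.33 to 225 CPM in female controls. In males they ranged from 106 to 201 CPM in the libraries labelled Myc RNAi and from 47.6 to 333 CPM in controls, so the groups overlapped. Cht8 and Cht12 share 35 bases of exon on opposite strands, and Cht9 overlaps the antisense RNA asRNA:CR44703 (39 reads in all) by 893 bases. Since the strand setting of the counting is not given, reads from such stretches cannot be assigned with certainty.

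Genes flanking the chitinase run also differed between genotypes. Of 7 tested neighbours within 20 kb that are not members, 4 rose and 1 fell in females, and 3 rose and 1 fell in males. Of all tested genes, 36.1% were called in females and 39.4% in males. On the Cht8 side, cpa, which encodes a subunit of the actin capping protein, rose by 1.59 in females (SE 0.20, adjusted p = 1.46e-05) and 1.52 in males (SE 0.20, adjusted p = 1.31e-05), and shg, which encodes E-cadherin, rose by 1.02 and 0.96 on the log2 scale. Treh, the trehalase gene, lies on the Cht9 side and fell by 1.19 in females and 1.80 in males. The gene nearest to Cht8, mRpL54, was at 0.24 and 0.39 and was not called. CG15653, on the Cht8 side, and CG10527, on the Cht9 side, were at 0.56 and 1.20 in females, where both were called, and at 0.75 and 0.69 in males, where CG15653 was. With all libraries, no tested neighbour within 20 kb reached the log2 change of Cht12, Cht4 or Cht9 in either sex. Without replicate 16, Cht9 was at 1.52 in males, near the value of cpa there with all libraries and smaller in size than that of Treh. Neighbours of other runs of members varied in their share of calls. Around Peritrophin-15a and Peritrophin-15b, 2 of 15 tested neighbours rose and 1 fell in each sex. Around obst-A and Peritrophin-A, 3 of 4 rose in each sex.

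**Figure D3:**
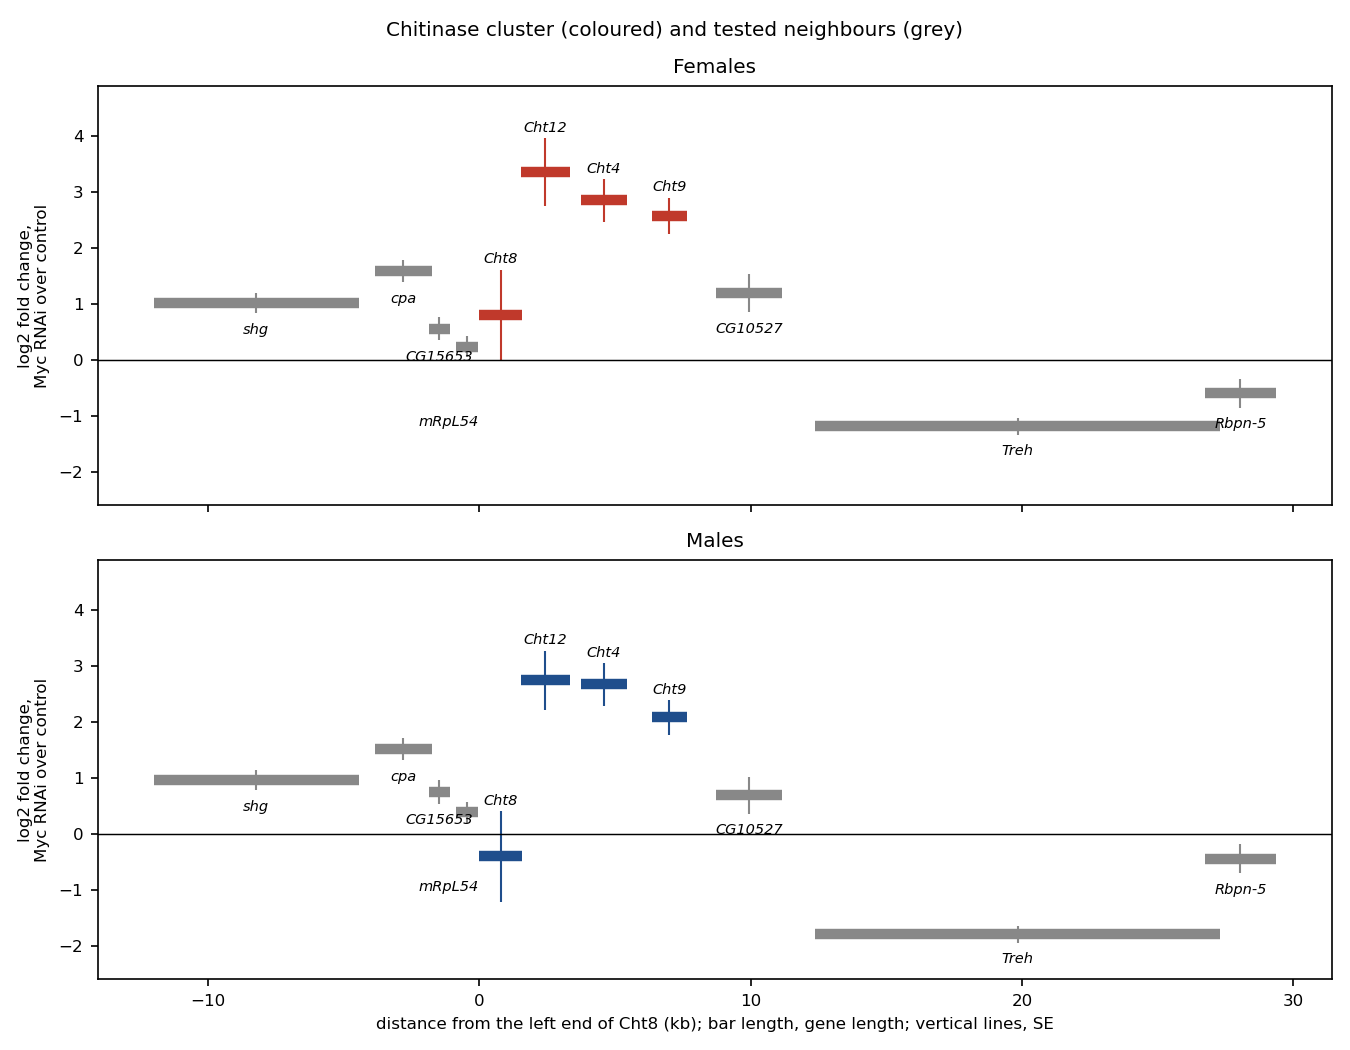
Log2 fold change of midguts labelled Myc RNAi over controls (vertical axis, lines are SE) against distance from the left end of Cht8 in kb, females above and males below. With all libraries, Cht12, Cht4 and Cht9 lie between 2.08 and 3.36, above Cht8 (coloured as they are) and all 7 tested neighbours (grey).

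Cht2, a chitinase with a role in chitin organisation in the cuticle, had 19.4, 23.2, 25.0 and 20.9 CPM in females labelled Myc RNAi, against 6.27, 4.47, 2.78 and 6.50 CPM in controls. In males it had 19.7, 33.1, 26.1 and 26.3 CPM in those labelled Myc RNAi and 8.36, 9.18, 5.88 and 7.21 CPM in controls. Its groups were again apart in both sexes, with log2 fold changes of 2.15 in females (SE 0.23, adjusted p = 4.16e-06) and 1.78 in males (SE 0.22, adjusted p = 9.53e-06). Cht10, a multi-domain chitinase listed as Cht3 in the table, was rare, at 0.636 to 1.59 CPM in females labelled Myc RNAi against 0.416 to 0.775 CPM in controls. In males it was at 1.28 to 2.37 CPM in the libraries labelled Myc RNAi against 0.493 to 0.870 CPM in controls. The female groups overlapped and the male ones did not. Cht10 rose by 1.005 in females (SE 0.34, adjusted p = 0.0301) and by 1.33 in males (SE 0.33, adjusted p = 0.00446). The female call of Cht10 ended without replicate 1, 3, 4, 11 or 12, with limma voom and with no filter on low counts (adjusted p 0.0611 to 0.107). Cht5 and Cht7, known from moulting and cuticle formation, and Cht11 were not called in either sex by the edgeR test of all libraries. Cht5 was at 1.20 in females (SE 0.49, adjusted p = 0.0669), Cht7 at −0.04 (SE 0.76) and Cht11 at −0.28 (SE 0.12, adjusted p = 0.0745). In females Cht5 was called with the DESeq2 Wald test, limma voom or total-count scaling and without replicate 4 or 7 (adjusted p 0.0219 to 0.0469), and Cht11 without replicate 4, 5 or 16 (0.0342 to 0.0491). The male values of Cht5, Cht7 and Cht11 were 0.58 (SE 0.48), −1.02 (SE 0.78) and −0.14 (SE 0.12). The remaining chitinase, Cht6, had 38 reads in replicate 16 and 51 in the other 15 libraries and was not tested.

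Peritrophin-15a (chr2L:8395665-8396096), which encodes a small chitin-binding protein, went the other way. It had 72.8, 52.9, 87.3 and 47.3 CPM in females labelled Myc RNAi, against 356, 854, 306 and 339 CPM in female controls. For males the values were 25.8, 29.7, 23.97 and 55.0 CPM in those labelled Myc RNAi, against 484, 369, 311 and 208 CPM in controls. Every library labelled Myc RNAi lay below every control of its sex. The log2 fold change was −2.83 in females (SE 0.38, adjusted p = 2.81e-05) and −3.35 in males (SE 0.39, adjusted p = 4.31e-06). Leaving out female control replicate 2, whose 854 CPM was the highest value, gave −2.39 in females. Its sister gene Peritrophin-15b lies next to it and had no reads. The nearest tested gene, CG13386, was at −0.60 in females (SE 0.37) and −0.49 in males (SE 0.36) and was not called. Peritrophin-A was at 0.0415 to 2.04 CPM in the 16 libraries and was not called, at 0.25 in females (SE 0.72) and −0.91 in males (SE 0.73).

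Among mucin-related genes, Mur29B (chr2L:8352187-8355172) rose in both sexes. Its values were 1254, 1114, 891 and 1206 CPM in females labelled Myc RNAi, against 226, 405, 350 and 688 CPM in controls, a log2 fold change of 1.42 (SE 0.25, adjusted p = 0.000282). In males it had 1241, 1250, 1212 and 1260 CPM in those labelled Myc RNAi and 315, 263, 352 and 245 CPM in controls, a change of 2.08 (SE 0.25, adjusted p = 6.69e-06). The groups were apart in both sexes, and the 4 male libraries labelled Myc RNAi lay within 1.04 times of each other. Mur2B was at 0.05 in females (SE 0.27) and −0.02 in males (SE 0.27) and was not called.

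Of 7 tested mucins, Muc68E rose in both sexes, Muc18B rose in males and Muc68Ca fell in males. Muc68E had 108, 90.0, 100.4 and 103 CPM in females labelled Myc RNAi, against 68.0, 64.9, 83.8 and 79.2 CPM in controls. Males had 186, 148, 155 and 155 CPM in those labelled Myc RNAi, against 125, 89.4, 137 and 134 CPM in controls. The groups did not overlap, but the changes were small, at 0.44 in females (SE 0.14, adjusted p = 0.0219) and 0.41 in males (SE 0.14, adjusted p = 0.0295). The female call ended without replicate 1, 2, 4, 9 or 12 (adjusted p 0.052 to 0.103) and the male one without 2, 5, 6 or 13 or when male libraries were fitted alone (0.0544 to 0.107). Muc18B, a low transcript at 0.267 to 0.781 CPM in males, rose there by 1.04 (SE 0.30, adjusted p = 0.0113). It was at −0.26 in females (SE 0.31, adjusted p = 0.585), and with no filter on low counts the male call ended (adjusted p = 0.0932). Muc55B and Muc14A were not called in either sex, with Muc55B at 0.24 in females (SE 0.21) and 0.09 in males (SE 0.20) and Muc14A at −0.30 and 0.71.

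Muc68Ca was the only member whose genotype effect differed between the sexes by the edgeR interaction test, which called 1.07% of all genes. This low transcript had 0.870, 0.835, 0.899 and 0.618 CPM in females labelled Myc RNAi, against 1.12, 1.003, 1.20 and 0.936 CPM in female controls (log2 fold change −0.40, SE 0.28, adjusted p = 0.294). Males had 0.585, 0.760, 0.373 and 0.718 CPM in those labelled Myc RNAi, against 3.67, 2.67, 2.60 and 2.26 CPM in controls, a fall of 2.19 (SE 0.28, adjusted p = 1.16e-05). Male controls stood above the other 3 groups, and all groups compared within a sex were apart. The female effect exceeded the male effect by 1.79 (SE 0.39, adjusted p = 0.0355). That call ended in 14 of 22 alternatives, among them the omission of any 1 of 12 libraries (adjusted p 0.0542 to 0.086). Of the other tested members, 3 more had an unadjusted edgeR interaction p below 0.05 and were not called. The share of all genes at that unadjusted threshold is not given here.

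Gasp and serp, both known from the trachea, fell in males by small amounts. Gasp, which encodes a secreted chitin-binding protein of the tracheal lumen, had 4.18, 5.76, 5.66 and 5.43 CPM in males labelled Myc RNAi, against 10.1, 6.65, 8.38 and 6.67 CPM in male controls (log2 fold change −0.59, SE 0.15, adjusted p = 0.00528). Females had 8.70, 9.39, 9.31 and 8.23 CPM in those labelled Myc RNAi and 10.5, 9.21, 9.30 and 9.21 CPM in controls (−0.10, SE 0.15, adjusted p = 0.654). For Gasp the male groups were apart and the female groups overlapped. The deacetylase gene serp, which limits the length of tracheal tubes, had 4.37, 4.74, 3.83 and 4.81 CPM in males labelled Myc RNAi and 6.93, 6.05, 6.48 and 5.41 CPM in male controls (−0.48, SE 0.15, adjusted p = 0.0144). In females serp had 6.53, 6.14, 6.71 and 6.77 CPM in those labelled Myc RNAi and 6.43, 8.94, 6.52 and 7.59 CPM in controls (−0.17, SE 0.15, adjusted p = 0.396). The same held for serp. Its neighbour verm was at −0.48 in males (SE 0.26, adjusted p = 0.159) and −0.31 in females (SE 0.26). With libraries scaled to total counts alone, where the median of all genes moved to 0.43 in females and 0.52 in males, Gasp was at −0.10 and serp at 0.00049 in males, and neither was called. Both calls ended under that scaling, and serp also lost its call without replicate 15 (adjusted p = 0.052). A list of 5 markers of tracheal cells summed to 8.38 to 11.9 CPM in males labelled Myc RNAi and 6.64 to 7.69 CPM in controls. In females the same list summed to 10.4 to 13.4 CPM in the libraries labelled Myc RNAi and 7.20 to 9.20 CPM in controls. Its 1 called gene in each sex was btl, the FGF receptor of tracheal cells, which rose by 0.89 in females and 0.82 in males. On the same list trh, vvl and uif were not called by the edgeR test of all libraries. The marker vvl was at 1.43 to 2.16 CPM in females labelled Myc RNAi and 1.28 to 2.82 CPM in controls. In males vvl was at 1.07 to 1.28 CPM in those labelled Myc RNAi and 0.968 to 1.67 CPM in controls. Osi19 was at 0.156 CPM or below in every library. The part of tracheal cells in the levels of Gasp, serp and verm was not tested.

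Obstructors were rare. Only obst-A, obst-E and obst-H were tested beside Gasp, and obst-E was at 1.64 to 5.58 CPM and not called. The log2 fold change of obst-A was 0.63 in females (SE 0.80) and 0.01 in males (SE 1.37), also not called. The fall of obst-H in males (log2 fold change −3.71, SE 1.01, adjusted p = 0.00738) rested on control replicate 6. That library held 15.3 CPM, against 0.204, 0.534 and 1.41 CPM in the other male controls and 0.170 to 0.504 CPM in males labelled Myc RNAi. Without it the change was −1.16 (adjusted p = 0.182).

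Sex differences were compared within each genotype. Among controls 7 of 27 members were called, all lower in females than in males, where 10.3% of all genes were called (5.02% higher and 5.27% lower). They were Cht4 (log2 fold change −2.09, SE 0.37, adjusted p = 0.00251), Cht12 (−2.49, SE 0.60, adjusted p = 0.0157), Cht9 (−1.38), Muc68Ca (−1.39), Muc55B (−0.97), Muc68E (−0.71) and obst-H. The obst-H call ended in 7 of 22 alternatives, and without male control replicate 6 its change was −1.36 (adjusted p = 0.25). The Cht12 call ended in a fit to the control libraries alone (adjusted p = 0.0698). Among the libraries labelled Myc RNAi 6 members were called, where 5.56% of all genes were (2.85% higher and 2.72% lower). Cht4 (−1.91, SE 0.37, adjusted p = 0.00657), Cht12 (−1.87, SE 0.51, adjusted p = 0.0408), Muc55B (−0.82, SE 0.21, adjusted p = 0.0304) and Muc68E (−0.68, SE 0.14, adjusted p = 0.00916) were lower in females. Gasp (0.76, SE 0.15, adjusted p = 0.00809) and serp (0.56, SE 0.15, adjusted p = 0.0355) were higher in females. Cht4 thus averaged 937 ± 26.2 CPM in females and 3508 ± 1017 CPM in males labelled Myc RNAi, and 130 ± 88.2 CPM in female controls and 551 ± 59.0 CPM in male controls (SD, n = 4 each). The number of members called among the libraries labelled Myc RNAi dropped to 3 without replicate 10, 11, 12 or 13 and with no filter on low counts, and to 4 without replicate 9 or 15. The call of Cht12 ended without any of replicates 6, 8, 9, 10, 11, 12, 13, 15 or 16 (adjusted p 0.0502 to 0.118) and with total-count scaling or no filter, and those of Muc55B and serp ended in 6 and 8 of 23 alternatives.

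Some abundant members differed more between libraries of a group than between groups. Muc68D, the mucin with the highest mean CPM per kb, had 562, 907, 2255 and 1530 CPM in females labelled Myc RNAi and 2133, 701, 434 and 854 CPM in female controls. In males it had 756, 745, 562 and 783 CPM in those labelled Myc RNAi and 1626, 1115, 455 and 1434 CPM in controls. The groups overlapped in both sexes, and the log2 fold changes were 0.35 in females (SE 0.48, adjusted p = 0.622) and −0.70 in males (SE 0.48, adjusted p = 0.268). Cht8 followed the same order of libraries as Muc68D in both female groups, and its order differed from that of Muc68D in both male groups. In the female groups the same order held for Pgant4, which encodes an enzyme that starts mucin-type O-glycans and is active in the proventriculus, at 33.5, 58.2, 147 and 92.0 CPM in females labelled Myc RNAi and 119, 41.9, 28.7 and 45.2 CPM in female controls. In male controls Pgant4 had 87.9, 68.0, 25.5 and 70.5 CPM, again in the order of Muc68D. In males labelled Myc RNAi, at 45.4, 48.6, 32.4 and 38.1 CPM, the order differed, and replicate 15 was lowest for both genes.

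Female control replicate 3 was the lowest of its group in 13 of the 27 members, while 22.6% of all tested genes had their lowest value there. It held 1.33 CPM of Cht8, no read of Cht7 and 0.0415 CPM of Peritrophin-A. Male control replicate 7 was likewise the lowest library of its group for Muc68D, Cht8, Cht7 and Peritrophin-A. The 3 listed markers of the proventriculus and foregut (Pgant4, GILT3 and Acbp6) summed to 78.9 to 205 CPM in females labelled Myc RNAi and 51.9 to 130 CPM in female controls. In males they summed to 89.1 to 166 CPM in the libraries labelled Myc RNAi and 78.5 to 145 CPM in controls. Their median log2 fold change was 0.50 in females and −0.54 in males. Male Acbp6 was at 39.4 to 126 CPM in the libraries labelled Myc RNAi and 28.1 to 53.8 CPM in controls. Male Pgant4 was at 32.4 to 48.6 CPM and 25.5 to 87.9 CPM, and GILT3 at 0.859 to 1.94 CPM and 1.33 to 2.85 CPM, in the same order. Acbp6 rose in females (1.37, adjusted p = 0.0176), the only call among the 3 in either sex. That call ended without replicate 1 or 2 (adjusted p 0.0569 and 0.0596), and in males Acbp6 was called in 5 of 23 alternatives. The part of the proventriculus in the levels of Muc68D and Cht8 was not tested.

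Muc11A and Mur18B, both on the X chromosome, were abundant in some libraries and far lower in others of the same group. Muc11A had 42.8, 205, 0.241 and 0.390 CPM in females labelled Myc RNAi and 0.266, 0, 0.540 and 80.1 CPM in female controls. In males it had 95.1, 104, 0.407 and 3.05 CPM in those labelled Myc RNAi and 105, 0.281, 97.0 and 88.3 CPM in controls. In each group some libraries were high for Muc11A and others were near 0. Mur18B had 119, 321, 1.70 and 33.0 CPM in females labelled Myc RNAi and 0.372, 0.137, 19.98 and 260 CPM in female controls. Its male values were 61.7, 203, 0.170 and 22.7 CPM in those labelled Myc RNAi and 185, 14.9, 325 and 135 CPM in controls. Each of the 8 libraries above 40 CPM of Muc11A also held over 40 CPM of Mur18B, and no other library did. The limit of 40 CPM lies just under the 42.8 CPM of Muc11A, and Mur18B reached 33.0 CPM below it. Neither gene was called in any comparison, with SEs of 1.66 to 1.94 on the log2 scale for the genotype effects. Without female control replicate 4, Muc11A was at 7.73 in females (adjusted p = 0.0423). The highest library exceeded the lowest by over 10 times for both genes in all 4 groups, as it did for only 2.13% to 4.20% of all tested genes.

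**Figure D4:**
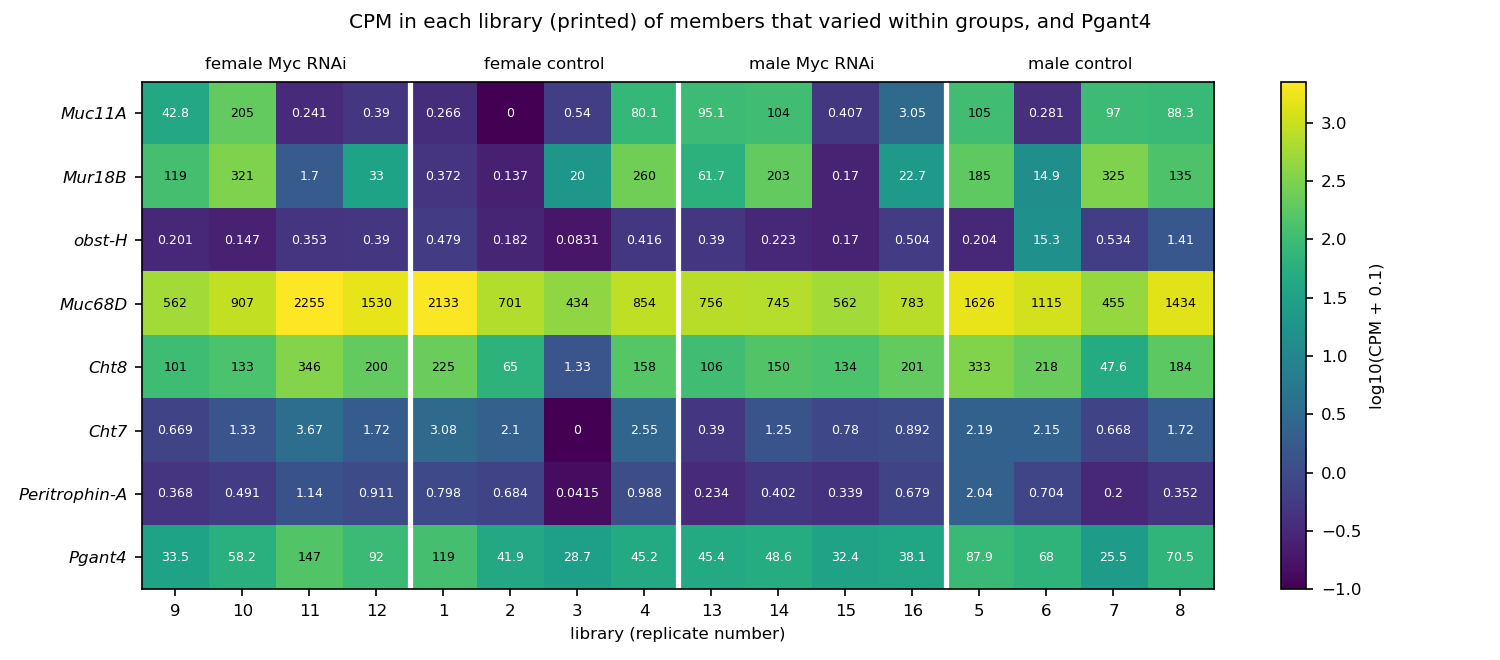
CPM in each of the 16 libraries (printed; colour, log10 of CPM + 0.1) for members that varied within groups, with the proventriculus marker Pgant4 in the last row. The other listed proventriculus markers, Acbp6 and GILT3, are not shown and followed the library order of Muc68D in no group. Muc11A and Mur18B are above 40 CPM in the same 8 libraries, and Muc68D and Cht8 are lowest in female control replicate 3 and male control replicate 7.

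Other genes of chitin and mucin metabolism were taken from lists. Over all these lists, 11 of 33 tested genes were called in females and 13 of 33 in males. Of all tested genes, 36.1% and 39.4% were called, so the lists lay near that background. In chitin synthesis, 2 of 6 tested genes rose and 2 fell in females, and 1 rose and 3 fell in males. Chs2, the chitin synthase of the gut, fell to 262 ± 34.3 CPM in females labelled Myc RNAi, against 547 ± 87.3 CPM in controls (SD, n = 4 each; log2 fold change −1.06, SE 0.19, adjusted p = 0.000359). In males Chs2 was at 258 ± 72.6 CPM in the libraries labelled Myc RNAi and 621 ± 39.0 CPM in controls (−1.27, SE 0.19, adjusted p = 5.81e-05). The cuticle and tracheal synthase kkv did not pass the filter on low counts and was not tested. Of the enzymes that make the sugar precursor, nst rose by 0.58 in females and 0.57 in males, while Gfat2 fell by 0.34 and 0.64. Gfat1, a paralogue of Gfat2 at the first step of the pathway, rose by 0.79 in females and was at 0.36 in males (adjusted p = 0.122), and Gnpnat fell by 0.79 in males. Under total-count scaling the changes of Gfat2 in both sexes and of Gnpnat were no longer called, and Gfat2 turned to 0.10 in females. The female call of Gfat2 ended in 13 of 23 alternatives (adjusted p 0.0507 to 0.531).

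Of 10 tested enzymes of mucin O-glycosylation, 2 rose and 1 fell in each sex. Pgant3, a transferase that adds the first sugar of O-glycans, reached 168 ± 15.2 CPM in females labelled Myc RNAi, against 41.4 ± 14.2 CPM in controls (SD, n = 4 each; log2 fold change 2.02, SE 0.21, adjusted p = 3.2e-06). In males it was at 307 ± 41.1 CPM in the libraries labelled Myc RNAi and 71.1 ± 11.4 CPM in controls (2.11, SE 0.21, adjusted p = 9.33e-07). C1GalTA, which extends the O-glycan, rose by 0.60 in females and 0.40 in males, and Pgant2 fell by 0.67 and 0.59, a fall no longer called under total-count scaling. The male call of C1GalTA ended without replicate 2, 5, 7, 8, 13 or 15 and when male libraries were fitted alone (adjusted p 0.0572 to 0.113). Among 3 hexosaminidases, which cut single sugars from glycans and chitin fragments, Hexo1 fell by 1.14 in females and 1.65 in males and fdl rose by 0.49 and 0.53. None of 6 chitinase-like Idgf growth factors was called in females by edgeR, DESeq2 or limma voom, and 0 of them had an unadjusted p below 0.05; Idgf3 was called there under total-count scaling. In males Idgf3 rose by 0.98 (adjusted p = 0.000588). Of 2 tested further deacetylases, Cda5 rose by 1.21 in males. In the list of apical matrix partners, rtv, which organises tracheal chitin, rose by 1.05 and 1.10, tyn, which encodes a zona pellucida domain protein, rose by 0.92 and 0.98, and the other 4 tested genes were not called.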

How the data were processed

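Midgut RNA was measured in 16 libraries, 4 per group, each from 30 pooled midguts. The authors deposited a table of raw read counts per gene. Per the labels' protocols, RNA was extracted with RNeasy and poly(A)-selected, and libraries were made with a NEBNext Ultra II Directional kit. The submitters' processing notes name TopHat2 2.0.11, featureCounts and the dm6 build. The strand setting, the annotation and the handling of multi-mapped reads are not given, so reads of paralogues or overlapping genes could be split. No replicate pair of the 24 agreed within sampling noise (lowest chi-square over its degrees of freedom 24.2).

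The counts of all 16 libraries were fitted with edgeR 4.0.16 in R 4.3.3, with filterByExpr by group, TMM scaling, the quasi-likelihood test and Benjamini-Hochberg adjustment over 9314 genes. In simulated counts for the female comparison (9207 genes), 65% of genes changed by 2-fold and 89% of those changed by 4-fold were recovered. The simulation changed a much smaller share of genes than the 36.1% called in the real female comparison, so these rates need not hold there. Alternatives were DESeq2 size factors, total-count scaling, the DESeq2 1.42.0 Wald test, limma 3.58.1 voom, no filter, at least 1 CPM in 4 libraries, a fit to the 2 groups alone and omission of each replicate. The members and lists were chosen with earlier results of these data known. Values per library are given for called members that reached a mean of 5 CPM, for members called in the interaction and for the 3 most abundant. From the other lists, called genes with the lowest p are named, at most 4 per list. Positions and exon lengths come from the Ensembl BDGP6 annotation, release 115. Of 16680 symbols, 12504 matched a current symbol, 3992 a synonym and 184 neither.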

Additional observations from a re-analysis of the deposited data

Results flagged for a closer look

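In 11 of 108 ranges of a tested member over the 4 libraries of a group, 1 library was flagged as standing apart. The flag (Dixon's ratio) compares a library's gap with the range of its group, so a flagged gap can be small in CPM. Its nominal rate of about 1 in 20 holds for independent values, while these members share libraries. The share of flags over all tested genes is not given here, so no excess for these members can be read from the count. In female controls the flagged libraries were replicate 2 for Peritrophin-15a (854 CPM, others 306 to 356) and verm (6.38, others 4.78 to 4.99). Replicate 1 of that group was flagged for Gasp (10.5, others 9.21 to 9.30) and Muc18B (0.532, others 0.332 to 0.365). Replicate 4 of the same group stood apart for Muc11A (80.1 CPM, others 0 to 0.540) and Mur18B (260 CPM, others 0.137 to 19.98). In females labelled Myc RNAi, replicate 9 was higher for Cht12 (7.93 CPM, others 6.87 to 7.03). In males labelled Myc RNAi, replicate 16, the library with testis transcripts, was higher for Cht9 (158 CPM, others 48.2 to 60.8), and replicate 15 was lower for Muc68D (562 CPM, others 745 to 783). In male controls, replicate 6 was lower for Muc11A (0.281 CPM, others 88.3 to 105) and higher for obst-H (15.3 CPM, others 0.204 to 1.41). The interaction of Muc68Ca was the other value singled out: its female genotype effect exceeded the male one by 1.79 on the log2 scale (edgeR adjusted p = 0.0355).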

How the results depend on the processing

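Each result was recomputed under 23 alternatives (22 for the interaction, which has no fit to 2 groups). Of 4564 values of single members and pathway genes, 4296 kept direction and side of the threshold, 93 lost and 50 gained a call. The sign turned in 121 with no call on either side, 86 of them with 1 library left out, and in 3 with a call on 1 side. These 3 turned under total-count scaling: Gfat2 in females (0.10), serp in males (0.00049) and Cht11 in males (0.33). That scaling moved the median of all genes to 0.43 in females and 0.52 in males and gave 3488 genes higher and 672 lower in females (1727 and 1635 with TMM) and 4460 and 776 in males (2025 and 1646 with TMM). Members called were then 10 higher and 1 lower in females, and 12 higher and 3 lower in males. Of all genes, 518 differed by sex among the libraries labelled Myc RNAi, against 793 with DESeq2 and 293 without the filter, and members called there dropped to 3 without it. By sex among controls the count was 959, or 538 in the fit to those libraries alone. The interaction called 100 genes, or 57 with total-count scaling, 243 with DESeq2 and 59 without the filter. It called 0 members with total-count scaling and 0 without the filter. With 1 replicate left out, genes called ranged over 2902 to 3725 in females, 3183 to 3861 in males, 247 to 590 by sex among Myc RNAi, 574 to 1292 by sex among controls and 36 to 131 for the interaction. Members called ranged over 6 to 9, 11 to 14, 3 to 7, 6 to 8 and 0 to 1 in the same order, and genes of the other lists over 10 to 12 in females and 12 to 15 in males. The cause of these shifts was not tested. No paired analysis was possible because no replicate number is shared between groups. Depth limits the 16 members with fewer than 100 reads over all libraries, which were not tested.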
